A study of Mus musculus with 4 samples.

Results

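The FGF ligand, receptor and ERK feedback genes described here are Fgf4, Fgf17, Fgfr1, Etv4, Etv5, Spry2, Spry4, Spred1, Dusp4 and Dusp6. They were chosen by name as parts of the FGF-ERK pathway, with earlier results of these data known. They are 10 of the 22739 genes in the tables, each carried by a single row, and all 10 passed the filter of a mean of at least 1 FPKM (fragments per kilobase of transcript scaled to the number of mapped fragments) over the 4 libraries. Fgf17 passed it through the shLuci libraries alone, so the filter fixed its direction. The study knocked down Tex10, a nuclear protein gene, in CCE cells, a line of embryonic stem (ES) cells derived from 129SV mice. The 2 shTex10 libraries came from cells given short hairpin RNA against Tex10 and the 2 shLuci libraries from cells given short hairpin RNA against luciferase, a control with no mouse target. All cells grew without feeder cells on gelatin in medium with 15% serum and the cytokine LIF. The series' design text calls the libraries biological replicates. How long after hairpin delivery cells were harvested is not stated in the labels.

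Tex10 itself stood at 11.6 and 13.4 FPKM in the shTex10 libraries, against 77.3 and 82.1 FPKM in the shLuci libraries, so it was at 15.7% of its shLuci mean. The 10 ES cell markers examined, among them Pou5f1, Sox2 and Nanog, were present in every library and summed to 4306 and 4666 FPKM in shTex10 libraries and to 5317 and 5727 FPKM in shLuci libraries. Of these 10 markers, 7 fell and 3 did not pass the test, with 4 lower under quantile normalization and 1 under scaling to the sum of all rows. Among all genes tested, 31.8% fell and 19.8% rose as deposited. Under quantile normalization 24.5% fell and 20.2% rose, and under the all-row scaling 1.99% fell and 5.51% rose. The 6 markers of the formative state summed to 65.0 and 66.7 FPKM in shTex10 libraries, against 86.3 and 85.8 FPKM in shLuci libraries, with 2 of 5 tested lower (Dnmt3b and Otx2) and 0 lower under quantile normalization. All 7 tested trophectoderm markers of 9 rose (3 under the all-row scaling), 1 of them, Tfap2a, having passed the filter through the shTex10 libraries alone, and that list summed to 578 and 572 FPKM in shTex10 libraries, against 254 and 264 FPKM in shLuci libraries. Among 8 primitive endoderm markers the 2 tested, Dab2 and Hnf4a, rose, Hnf4a having passed the filter through the shTex10 libraries alone, and 6 (Gata4, Gata6, Sox17, Sox7, Pdgfra and Foxa2) lay below 1 FPKM in all 4 libraries. That list summed to 8.49 and 8.48 FPKM in shTex10 libraries, against 4.78 and 4.14 FPKM in shLuci libraries. The 8 fibroblast markers summed to 42.6 and 31.0 FPKM in shTex10 libraries, against 36.9 and 28.2 FPKM in shLuci libraries, with 1 of 3 tested lower (Col1a2). Another, Col1a1, had a log2 change of 0.65 and did not pass as deposited (limma adjusted p = 0.0607). Col1a1 was called higher under median scaling, quantile normalization and scaling to the sum of named genes. No marker was listed at 0 in every library. The part of these marker changes in the results on the pathway was not tested, and in bulk RNA fewer cells of a type cannot be told apart from less RNA per cell.

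FGF ligands bind FGF receptor tyrosine kinases together with heparan sulfate, and the receptors activate ERK through the adaptor FRS2, RAS, RAF and MEK. In ES cells FGF4, made by the cells themselves, is the best known source of this signal, which primes cells to leave the pluripotent state and directs the primitive endoderm of the early embryo. ERK activity induces a set of genes that report on it and restrain it. The ETS factors Etv4 and Etv5 belong to it, as do the Sprouty and SPRED inhibitors that act on the route to RAF and the dual specificity phosphatases, such as Dusp4 and Dusp6, that remove phosphate from ERK.

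Of the 10 genes, 6 fell after Tex10 knockdown (Fgf4, Fgf17, Spry4, Etv4, Spred1 and Dusp6), 2 rose (Fgfr1 and Dusp4), and 2 did not pass the test (Spry2 and Etv5). Each was tested with limma on log2(FPKM + 1) over all 11883 genes that passed the filter, with a Benjamini-Hochberg adjusted p under 0.05 as the threshold. Much of the transcriptome passed it. Over all genes tested 31.8% fell and 19.8% rose, so 51.6% changed in either direction. The median log2 change was -0.56 over the 10 genes and -0.14 over all genes. In 7 of the 10 both shTex10 libraries lay below both shLuci libraries, against a background of 48.1% of genes, in 2 both lay above (background 28.3%), and in Etv5 the groups overlapped, whereas they did not overlap in 76.4% of all genes. A fall of at least 1 on this log2 scale that passed the test was found in 4 of them, Fgf17, Spry4, Fgf4 and Etv4, against 3.05% of all genes. Fgf17 was the 11th most reduced gene of 11883, Spry4 the 74th and Fgf4 the 106th. The 10 genes were chosen with earlier results of these data known, so these counts, medians and ranks are a description and not a test. The direction of Fgf17 was also fixed by the filter, which it passed through the shLuci libraries alone.

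**Figure D1:**
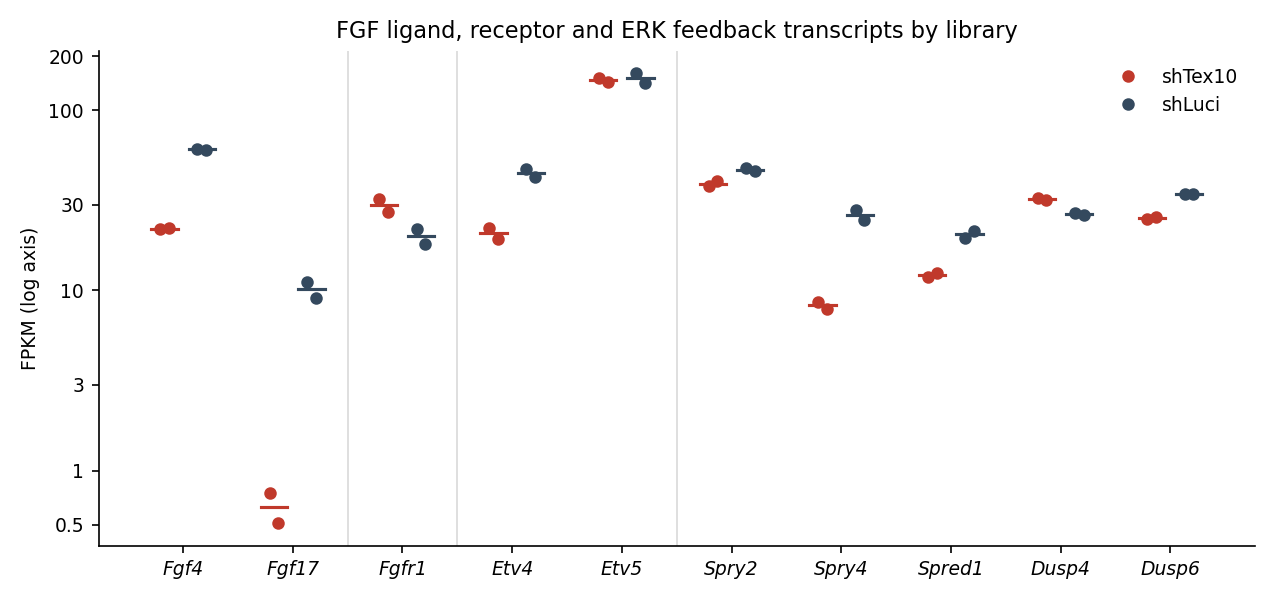
FPKM of the 10 FGF and ERK feedback genes in each library, with shTex10 libraries left of shLuci libraries, on a log axis, with points for libraries and horizontal lines for group means. The separation is widest for Fgf17, with 0.750 and 0.511 FPKM in shTex10 libraries against 11.2 and 9.11 FPKM in shLuci libraries, and the groups overlap for Etv5.

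Values relative to the total depend on how the libraries are scaled. Setting every library to the same sum over named genes moved the median of all genes to 0.06, and 5 of the 10 genes then fell (16.0% of all genes) and 2 rose (27.2% of all genes, and 43.3% in either direction). Dusp6 was the gene whose call was lost, at a log2 change of -0.21 and an adjusted p of 0.0943 by limma. Setting every library to the same sum over all rows, unnamed rows included, left Fgf4, Fgf17 and Spry4 past the test as lower (1.99% of all genes) and 0 as higher (5.51% of all genes, and 7.51% in either direction). Median scaling gave 6 lower (26.8% of all genes) and 2 higher (21.7% of all genes, and 48.5% in either direction). Quantile normalization also gave 6 lower (24.5% of all genes) and 2 higher (20.2% of all genes, and 44.7% in either direction).

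Promoter sequence from RefSeq for mouse build GRCm38.p6 was examined for 5 of the 10 genes, as 6 windows that run 250 bases before to 50 bases after a start. No window of Fgf17, Fgfr1, Spry4, Dusp4 or Etv4 was examined, so the counts below do not cover them. A pair of genes that fell (Fgf4 and Dusp6) and the upstream window of the gene with the smallest change (Etv5) are shown here so that their composition can be compared beside the expression values. Capitals mark the Sp box GGGCGG, or CCGCCC on the other strand, the binding motif of the SP and KLF zinc finger factors.
Fgf4, chr7:144861136-144861435, plus strand: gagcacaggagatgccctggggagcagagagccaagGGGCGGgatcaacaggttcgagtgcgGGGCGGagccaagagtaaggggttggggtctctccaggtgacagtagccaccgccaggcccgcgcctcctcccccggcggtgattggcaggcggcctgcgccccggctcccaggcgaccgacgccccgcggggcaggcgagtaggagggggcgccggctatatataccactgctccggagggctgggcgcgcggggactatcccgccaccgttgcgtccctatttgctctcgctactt
Dusp6, chr10:99262981-99263280, plus strand: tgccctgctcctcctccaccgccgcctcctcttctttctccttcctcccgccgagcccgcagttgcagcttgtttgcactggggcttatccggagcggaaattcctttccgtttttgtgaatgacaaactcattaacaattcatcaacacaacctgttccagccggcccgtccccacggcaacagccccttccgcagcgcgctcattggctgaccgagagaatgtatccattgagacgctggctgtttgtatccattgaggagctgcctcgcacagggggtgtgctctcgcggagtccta
Etv5, chr16:22439521-22439820, minus strand: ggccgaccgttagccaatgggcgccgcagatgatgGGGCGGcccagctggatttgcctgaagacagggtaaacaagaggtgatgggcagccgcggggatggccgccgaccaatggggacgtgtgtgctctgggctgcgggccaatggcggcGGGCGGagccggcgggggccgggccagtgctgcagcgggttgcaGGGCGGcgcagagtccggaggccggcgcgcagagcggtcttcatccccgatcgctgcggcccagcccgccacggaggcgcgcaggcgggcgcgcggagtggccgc
The Fgf4 window held 2 Sp boxes, the Etv5 window 3 and the Dusp6 window 0, so the box was present and absent among genes that fell. The other Etv5 window, which starts downstream, held 0. Spred1, which fell, had 3 and Spry2, which did not pass, had 0. The box was found in 35.7% of 32851 mouse promoter windows of the same length. The string CCGGAA, or TTCCGG on the other strand, is 1 extended form of the ETS motif. It was found in the Spry2 window alone among the 6, at 1 copy, and in 14.9% of all windows. Shorter and other forms of the ETS motif, such as GGAA, were not counted, so their absence is not shown. All 6 windows held more CG than the median of 7 over all windows. Dusp6 and the downstream Etv5 window held 19 each, more than 71.9% of all windows. Fgf4 and Spry2 held 28 each (more than 85.8%), the upstream Etv5 window 37 (94.4%) and Spred1 40 (96.1%). These letters describe the windows and say nothing about which factors bind there.

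Among the ligands, Fgf4 fell strongly. It stood at 21.9 and 22.2 FPKM in the shTex10 libraries, against 61.1 and 60.2 FPKM in the shLuci libraries. The libraries of each group lay within 1 FPKM of each other and the groups were far apart. The means were 22.0 ± 0.208 FPKM in shTex10 cells and 60.6 ± 0.681 FPKM in shLuci cells (SD, n = 2 each), 36.3% of the control level, and the log2 change was -1.42 (SE 0.08, limma adjusted p = 0.000249). Fgf4 lies at 152047291 to 152051154 on chromosome 7 in mm9, the build of the deposited coordinates. Its downstream enhancer is a textbook target of OCT4 and SOX2. Pou5f1, which encodes OCT4, averaged 575 FPKM in shTex10 cells and 893 FPKM in shLuci cells and fell by 0.64 on the log2 scale, a call lost under quantile normalization (adjusted p = 0.149, limma) and all-row scaling. Sox2 had a log2 change of -0.26 and did not pass (adjusted p = 0.0829, limma), and its sign turned under quantile normalization. Prdm14, which encodes a repressor of FGF signalling in ES cells, fell to 3.92 FPKM in shTex10 cells, against 14.4 FPKM in shLuci cells (log2 change -1.65). The part of these factors in the fall of Fgf4 was not tested.

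Fgf17, a ligand of the FGF8 subfamily known from midbrain and streak-stage embryos, showed the largest fall of the 10 genes. It had 0.750 and 0.511 FPKM in the shTex10 libraries, against 11.2 and 9.11 FPKM in the shLuci libraries. Its mean in shTex10 cells, 0.630 ± 0.169 FPKM (SD, n = 2), was below the filter, and was 6.21% of the 10.1 ± 1.46 FPKM in shLuci cells (SD, n = 2). The log2 change was -2.77 (SE 0.13, limma adjusted p = 0.000182) with a pseudocount of 1 and -3.82 with a pseudocount of 0.1, so the first value understates the fall. The deposited locus of Fgf17, chromosome 14 at 71036012 to 71052891, is also the locus of both rows of Npm2, an oocyte histone chaperone gene, so the division of reads between the 2 genes is uncertain. Npm2 had 0.225 and 0.117 FPKM in shTex10 libraries and 1.82 and 1.45 FPKM in shLuci libraries, was below the filter and was not tested. It was singled out after its values were seen, because of the shared locus.

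The 22 genes of the FGF family together summed to 38.7 and 40.3 FPKM in the shTex10 libraries, against 88.5 and 86.5 FPKM in the shLuci libraries. They include the intracellular Fgf13, so the sum is not one of receptor ligands alone. The make-up of this sum differed. Fgf4 made up 56.5% and 55.0% of it in shTex10 libraries, against 69.0% and 69.6% in shLuci libraries, and Fgf17 made up 1.94% and 1.27%, against 12.6% and 10.5%. The share of Fgf1, a ligand that binds all FGF receptors, was 21.3% and 20.5% in shTex10 libraries, against 2.26% and 2.63% in shLuci libraries. Of the 20 genes other than Fgf4 and Fgf17, 15 lay below the filter, Fgf5 and Fgf8 among them. Fgf5, a marker of primed pluripotency, averaged 0.775 FPKM in shTex10 cells and 0.962 FPKM in shLuci cells, and Fgf8 averaged 0.169 FPKM in shTex10 cells and 0.744 FPKM in shLuci cells. Of the 5 tested, 2 fell, 2 rose and 1 did not pass, with a median log2 change of 0.23. Fgf1 averaged 8.25 ± 0.00259 FPKM in shTex10 cells and 2.14 ± 0.191 FPKM in shLuci cells (SD, n = 2 each), a log2 change of 1.56. Fgf15, the endocrine ligand known from the ileum, averaged 1.63 FPKM in shTex10 cells and 6.53 FPKM in shLuci cells (log2 change -1.51). Fgf10, a ligand of limb and lung buds, averaged 0.481 FPKM in shTex10 cells and 1.57 FPKM in shLuci cells (log2 change -0.80), and passed the filter through the shLuci libraries alone. Fgf13, an intracellular member of the family that does not signal through the receptors, had a log2 change of 0.42, a call lost under quantile normalization, under all-row scaling and without shLuci replicate 1 (limma adjusted p = 0.128). Fgf18 had a log2 change of 0.23 and did not pass.

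Fgfr1, the main FGF receptor of ES cells, was higher after knockdown while the ligands Fgf4 and Fgf17 were lower. It had 32.3 and 27.2 FPKM in the shTex10 libraries, against 21.9 and 18.1 FPKM in the shLuci libraries. The groups did not overlap, although replicates differed by several FPKM in each. The means were 29.7 ± 3.65 FPKM in shTex10 cells and 20.0 ± 2.69 FPKM in shLuci cells (SD, n = 2 each), 1.49-fold higher, with a log2 change of 0.55 (SE 0.13, limma adjusted p = 0.0183). Its locus is chromosome 8 at 26629244 to 26686849. The ratio of Fgf4 to Fgfr1 within a library was 0.677 and 0.816 in shTex10 libraries, against 2.79 and 3.33 in shLuci libraries. Scaling a library by a single factor leaves this ratio unchanged, whereas quantile normalization can change it. With 2 libraries a group an exact permutation test of such a within-library ratio cannot go below p = 0.333.

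Fgfr1 to Fgfr4 summed to 41.0 and 34.0 FPKM in shTex10 libraries, against 25.8 and 21.5 FPKM in shLuci libraries. Fgfr1 remained the largest part of this sum, at 78.8% and 79.9% in shTex10 libraries, against 84.7% and 84.2% in shLuci libraries. Fgfr2, a receptor used by trophoblast cells among others, averaged 4.88 ± 0.762 FPKM in shTex10 cells and 2.29 ± 0.166 FPKM in shLuci cells (SD, n = 2 each), a log2 change of 0.83 (limma adjusted p = 0.00335). It rose alongside the trophectoderm markers Tfap2c, Krt8 and Ascl2, whose log2 changes were 1.63, 1.13 and 2.02. The 2 tested primitive endoderm markers of 8, Dab2 and Hnf4a, also rose (log2 changes 0.91 and 0.84). Hnf4a had passed the filter through the shTex10 libraries alone. Whether cells of either type were present or had a part in the rise of Fgfr2 was not tested. Fgfr4 averaged 2.14 FPKM in shTex10 cells and 0.838 FPKM in shLuci cells (log2 change 0.77), and passed the filter through the shTex10 libraries alone. Under all-row scaling neither call held, with adjusted p-values by limma of 0.173 for Fgfr2 and 0.0824 for Fgfr4. Fgfr3 lay below the filter at 0.726 FPKM in shTex10 cells and 0.540 FPKM in shLuci cells. Of the 9 other receptors and co-receptors, 4 were tested, of which 2 rose, 1 fell and 1 did not pass (median log2 change 0.46). The gene that fell was Fgfrl1, a receptor without a kinase domain, at a log2 change of -0.38, and its call was lost under 3 of the 4 other scalings and without shLuci replicate 1 (limma adjusted p = 0.133) or shTex10 replicate 2 (limma adjusted p = 0.141). The co-receptor genes Kl and Klb were below 1 FPKM in all libraries.

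The ETS factors differed from each other, although Etv4 and Etv5 are close relatives that FGF signalling often induces together. Etv4 stood at 22.1 and 19.4 FPKM in the shTex10 libraries, against 47.2 and 42.5 FPKM in the shLuci libraries. It fell to 46.3% of the control level, with means of 20.8 ± 1.92 FPKM in shTex10 cells and 44.8 ± 3.34 FPKM in shLuci cells (SD, n = 2 each) and a log2 change of -1.07 (SE 0.11, limma adjusted p = 0.00105). Etv5 stood at 151 and 144 FPKM in the shTex10 libraries, against 161 and 142 FPKM in the shLuci libraries. Both shTex10 libraries thus lay within the range of the shLuci libraries. The log2 change of Etv5 was -0.03 (95% interval -0.28 to 0.21, limma adjusted p = 0.790), which does not show that its level was the same, and its sign turned under median scaling, quantile normalization and named-gene scaling. Etv4 lies on chromosome 11 at 101631004 to 101648859 and Etv5 on chromosome 16 at 22381143 to 22439643.

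The ratio of Etv4 to Etv5 within a library was 0.147 and 0.135 in shTex10 libraries, against 0.294 and 0.299 in shLuci libraries. Etv1, the remaining member of this subfamily, averaged 5.88 ± 0.225 FPKM in shTex10 cells and 9.98 ± 0.0364 FPKM in shLuci cells (SD, n = 2 each), a log2 change of -0.68. Etv5 was by far the most abundant of the 3 per length and made up 84.4% and 85.0% of their summed FPKM in shTex10 libraries, against 73.8% and 73.0% in shLuci libraries. The sum was 179 and 170 FPKM in shTex10 libraries, against 218 and 195 FPKM in shLuci libraries, and the groups overlapped under named-gene and all-row scaling.

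Among the Sprouty genes, which encode inhibitors that act between receptor and RAF, Spry4 changed far more than Spry2. Spry4 had 8.60 and 7.92 FPKM in the shTex10 libraries, against 28.0 and 24.7 FPKM in the shLuci libraries. It fell to 31.4% of the control level, with means of 8.26 ± 0.476 FPKM in shTex10 cells and 26.3 ± 2.33 FPKM in shLuci cells (SD, n = 2 each) and a log2 change of -1.56 (SE 0.10, limma adjusted p = 0.000339). Spry2 had 37.8 and 40.3 FPKM in the shTex10 libraries, against 47.6 and 46.3 FPKM in the shLuci libraries. Its groups did not overlap, and the difference was small, at a log2 change of -0.26 (95% interval -0.48 to -0.04, limma adjusted p = 0.0514), so it missed the threshold after adjustment although the interval lies below 0. Spry2 lies on chromosome 14 at 106291164 to 106296036 and Spry4 on chromosome 18 at 38745901 to 38761220.

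The ratio of Spry4 to Spry2 within a library was 0.227 and 0.196 in shTex10 libraries, against 0.588 and 0.534 in shLuci libraries. Spry1 had a log2 change of -0.12 and did not pass, with a sign that turned under named-gene scaling, and Spry3 was listed at 0 in all libraries. Spry1 to Spry4 summed to 51.6 and 52.6 FPKM in shTex10 libraries, against 81.3 and 75.8 FPKM in shLuci libraries. Spry2 made up 73.3% and 76.7% of that sum in shTex10 libraries, against 58.6% and 61.0% in shLuci libraries.

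Spred1, an inhibitor that brings the RAS GTPase activating protein neurofibromin to the membrane, had 11.9 and 12.5 FPKM in the shTex10 libraries, against 19.6 and 21.3 FPKM in the shLuci libraries. It fell to 59.6% of the control level, with means of 12.2 ± 0.424 FPKM in shTex10 cells and 20.5 ± 1.16 FPKM in shLuci cells (SD, n = 2 each) and a log2 change of -0.70 (SE 0.09, limma adjusted p = 0.00253). Its locus is chromosome 2 at 116945962 to 117008014. Spred2 averaged 20.3 FPKM in shTex10 cells and 26.5 FPKM in shLuci cells, a log2 change of -0.36 (limma adjusted p = 0.0401) whose call was lost under all 4 other scalings and without shLuci replicate 1 (limma adjusted p = 0.230) or shTex10 replicate 2 (limma adjusted p = 0.134). Spred3 had a log2 change of -0.10 and did not pass, and its sign turned under named-gene scaling. The ratio of Spred1 to Spred2 within a library was 0.561 and 0.643 in shTex10 libraries, against 0.687 and 0.874 in shLuci libraries.

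The ERK phosphatase genes Dusp6 and Dusp4 moved in opposite directions, and both by little. Dusp6, which encodes a cytoplasmic phosphatase selective for ERK, had 25.0 and 25.5 FPKM in the shTex10 libraries, against 34.5 and 34.1 FPKM in the shLuci libraries. It fell to 73.7% of the control level, with means of 25.3 ± 0.370 FPKM in shTex10 cells and 34.3 ± 0.230 FPKM in shLuci cells (SD, n = 2 each) and a log2 change of -0.43 (SE 0.08, limma adjusted p = 0.00894). Dusp4, which encodes a nuclear phosphatase, had 32.5 and 31.7 FPKM in the shTex10 libraries, against 26.9 and 26.2 FPKM in the shLuci libraries. The means of Dusp4 were 32.1 ± 0.559 FPKM in shTex10 cells and 26.5 ± 0.505 FPKM in shLuci cells (SD, n = 2 each), 1.21-fold higher, with a log2 change of 0.27 (SE 0.08, limma adjusted p = 0.0429). The Dusp4 call was lost whichever of the 4 libraries was left out. Its log2 change then stayed at 0.25 to 0.28, while the SE rose to 0.17 in fits with 1 library in a group. Dusp6 lies on chromosome 10 at 98725865 to 98730123 and Dusp4 on chromosome 8 at 35870320 to 35885009.

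The ratio of Dusp6 to Dusp4 within a library was 0.770 and 0.805 in shTex10 libraries, against 1.28 and 1.30 in shLuci libraries, so the more abundant of the pair per length was Dusp4 in shTex10 cells and Dusp6 in shLuci cells. Dusp2, which encodes a nuclear phosphatase known from lymphocytes, rose to 2.39 FPKM in shTex10 cells, against 0.452 FPKM in shLuci cells (log2 change 1.23), and passed the filter through the shTex10 libraries alone. Dusp7, a close relative of Dusp6, fell to 1.28 FPKM in shTex10 cells, against 3.03 FPKM in shLuci cells (log2 change -0.82). Dusp9, the most abundant phosphatase of this group per length, averaged 51.3 ± 6.65 FPKM in shTex10 cells and 53.8 ± 8.05 FPKM in shLuci cells (SD, n = 2 each) and did not pass. Dusp5 had a log2 change of 0.02 and did not pass. The 6 phosphatase genes summed to 136 and 124 FPKM in shTex10 libraries, against 143 and 129 FPKM in shLuci libraries, and the groups overlapped as deposited and under median, named-gene and all-row scaling.

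**Figure D2:**
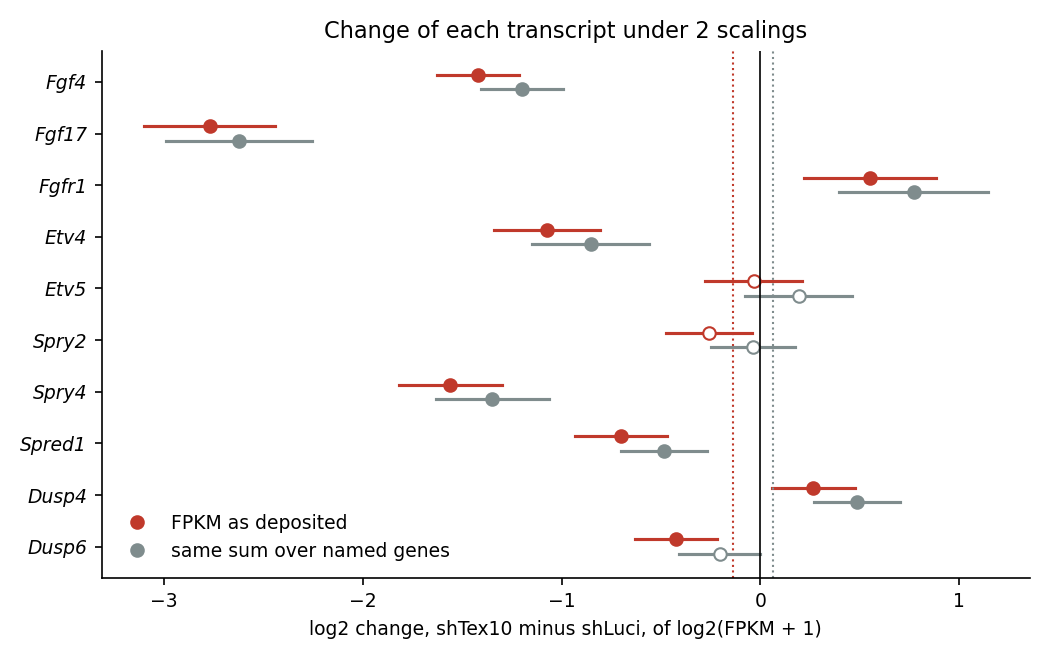
Log2 change of the 10 genes, shTex10 minus shLuci on the log2(FPKM + 1) scale, with 95% intervals from limma, in red as deposited and in grey after scaling to the same sum over named genes (filled points passed the test, open points did not, and dotted lines mark the medians of all genes, -0.14 and 0.06). As deposited, values run from -2.77 for Fgf17 to 0.55 for Fgfr1, the interval of Etv5 spans 0, and Dusp6 does not pass under the grey scaling.

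The rest of the pathway was described with lists of related genes. The background for their counts is 31.8% of all genes lower and 19.8% higher as deposited. Under named-gene scaling it is 16.0% lower and 27.2% higher. In the ERK cascade list of adaptors, RAS, RAF, MEK, ERK and RSK genes, 20 of 21 were tested, of which 8 fell, 3 rose and 9 did not pass. The median log2 change of this list was -0.21 as deposited and -0.00 under named-gene scaling, where 2 fell and 3 rose. Nras, which encodes a RAS GTPase, averaged 23.2 FPKM in shTex10 cells and 45.7 FPKM in shLuci cells (log2 change -0.95). Mapk3, which encodes ERK1, averaged 15.1 FPKM in shTex10 cells and 27.4 FPKM in shLuci cells (log2 change -0.82). Frs3, an adaptor related to FRS2, rose to 7.38 FPKM in shTex10 cells, against 3.14 FPKM in shLuci cells (log2 change 1.01). Map2k1, which encodes a MEK kinase, had a log2 change of -0.44, and its call was lost under quantile normalization, named-gene scaling and all-row scaling.

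In the other ERK-induced genes 9 of 10 were tested, of which 6 fell and 3 rose, with a median log2 change of -0.68. Ccnd1, which encodes cyclin D1, averaged 27.5 FPKM in shTex10 cells and 59.6 FPKM in shLuci cells (log2 change -1.09). The transcription factor genes Egr1 and Myc had log2 changes of -0.72 and -0.76. In the opposite direction Phlda1 rose to 47.1 FPKM in shTex10 cells, against 13.6 FPKM in shLuci cells (log2 change 1.72), and the early response gene Ier3 rose to 12.4 FPKM, against 6.05 FPKM (log2 change 0.93). Genes known to be induced by ERK, Spry4, Etv4, Phlda1 and Ier3 among them, thus differed in direction.

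Of 15 other ERK inhibitors 14 were tested, of which 2 fell, 4 rose and 8 did not pass, with a median log2 change of -0.00 that was above 0 under 3 of the 4 other scalings. Errfi1, an inhibitor of EGF receptors, averaged 24.2 FPKM in shTex10 cells and 12.1 FPKM in shLuci cells (log2 change 0.94). Dusp14 had a log2 change of 1.07, and Lztr1, an adaptor for RAS degradation, one of 0.38, a call lost without shLuci replicate 2 (limma adjusted p = 0.126) or shTex10 replicate 1 (limma adjusted p = 0.108). Among 15 tested heparan sulfate genes, 4 fell, 5 rose and 6 did not pass (median log2 change -0.05, with a sign that turned under 3 of the 4 other scalings). Sdc4, which encodes the core protein of syndecan-4, rose to 132 FPKM in shTex10 cells, against 30.8 FPKM in shLuci cells (log2 change 2.07). Gpc3, which encodes a glypican, fell to 12.5 FPKM in shTex10 cells, against 26.3 FPKM in shLuci cells (log2 change -1.02). Gpc4 and the sulfotransferase gene Hs6st2 had log2 changes of 0.45 and 0.39. The Gpc4 call was lost without shLuci replicate 2 (limma adjusted p = 0.0670) or shTex10 replicate 2 (limma adjusted p = 0.0506), and the Hs6st2 call under quantile normalization (limma adjusted p = 0.103). Ext2, a chain polymerase gene, had a log2 change of -0.57. Under all-row scaling 0 genes of the ERK cascade list and 0 of the other receptors and co-receptors passed, 1 other ERK-induced gene, 1 other inhibitor and 1 heparan sulfate gene did, and all 3 rose.

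**Figure D3:**
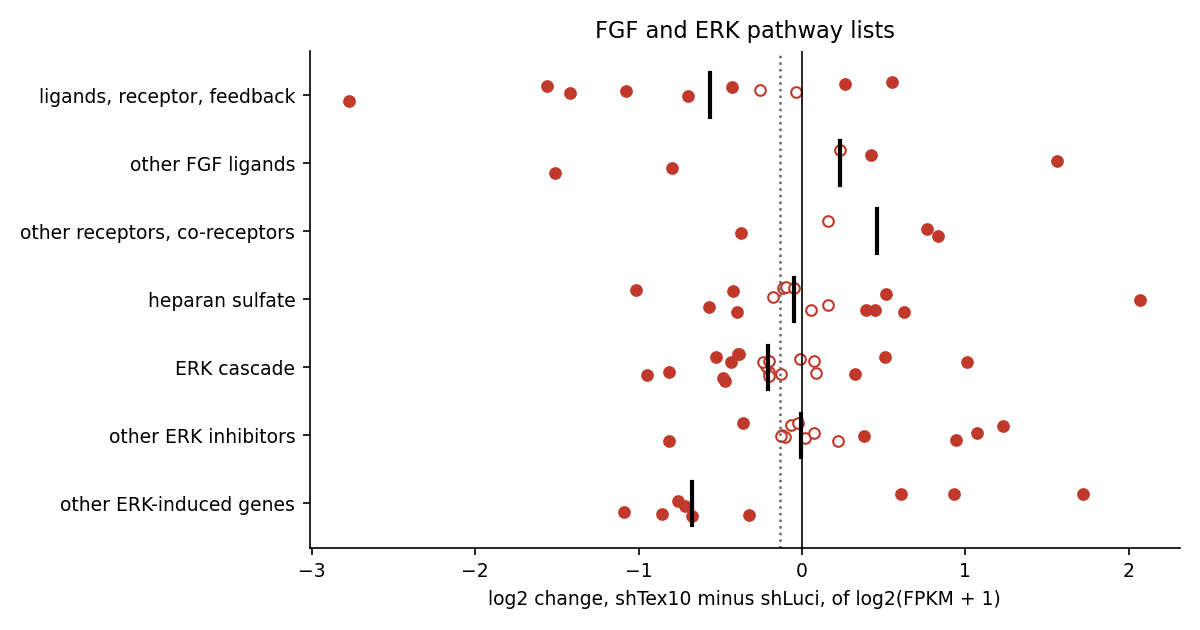
Log2 change, shTex10 minus shLuci on the log2(FPKM + 1) scale, of each tested gene in the FGF and ERK lists as deposited (filled points passed the test, open points did not), with a bar at each list's median and a dotted line at the median of all genes, -0.14. The 10 members have a median of -0.56, the ERK cascade -0.21, other ERK-induced genes -0.68 and other ERK inhibitors -0.00.

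The tables also hold 7329 rows without a gene name, and those near the 10 genes were examined in a fit that included such rows (13653 features tested, of which 20.6% rose and 27.3% fell, 47.9% in all). Within 10 kb, 3 unnamed rows lay on the 3′ side of Spry2, which is on the minus strand in RefSeq, and all 3 rose, whereas Spry2 did not pass the test. The nearest, at chromosome 14, 106283880 to 106290333, began 830 bases beyond the Spry2 locus and had 2.73 and 2.67 FPKM in shTex10 libraries, against 0.689 and 0.722 FPKM in shLuci libraries (log2 change 1.12, limma adjusted p = 0.00165). The next, at 106281332 to 106283804, had 4.52 and 3.44 FPKM in shTex10 libraries, against 0.919 and 0.990 FPKM in shLuci libraries (log2 change 1.34, limma adjusted p = 0.00276). The third, at 106280925 to 106281255, had 10.9 and 7.18 FPKM in shTex10 libraries, against 1.59 and 2.18 FPKM in shLuci libraries (log2 change 1.78, limma adjusted p = 0.00435). Each shTex10 library exceeded each shLuci library in all 3. The first 2 of these rows averaged below 1 FPKM in shLuci cells and passed the filter through the shTex10 libraries alone, so their direction was fixed by the filter and their calls are a description. A window of 20 kb, chosen after these values were seen, held 7 such rows near Spry2, all of which rose, 3.82-fold to 4.80-fold in mean FPKM, but 5 of the 7 passed the filter through the shTex10 libraries alone. The rows may be pieces of a single transcript and are not independent. Near the other 9 genes the 10 kb window held 5 unnamed rows, by Etv4, Spred1 and Spry4, all below the filter and all with lower means in shTex10 cells than in shLuci cells.

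**Figure D4:**
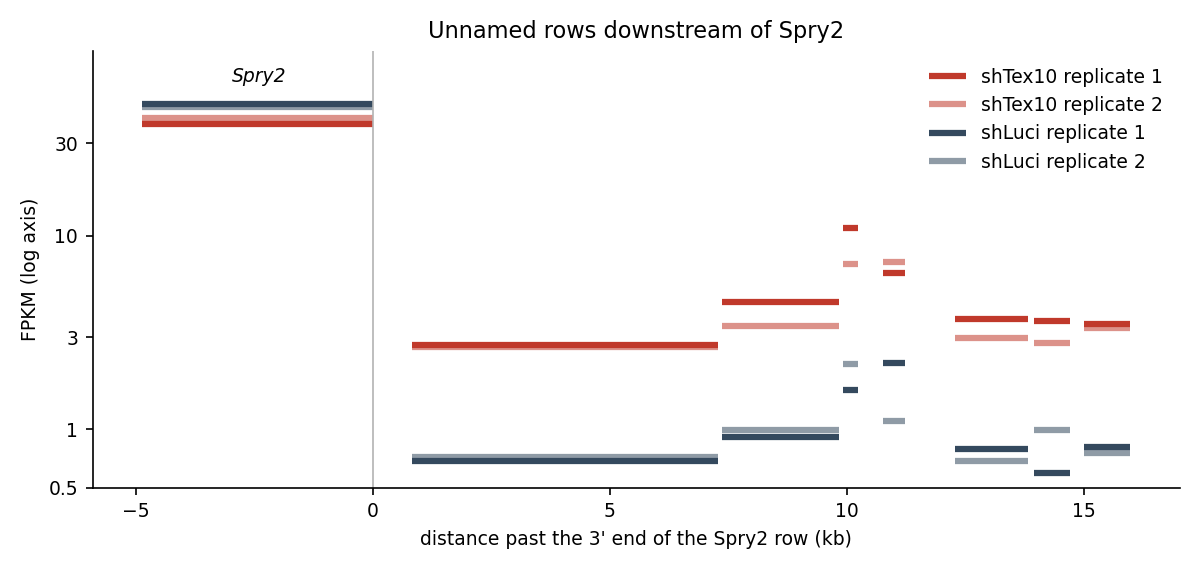
FPKM (log axis) by library, as segments that span each row, of Spry2 and of the unnamed rows within 20 kb on its 3′ side, against the distance of each row from the Spry2 locus. Spry2 stands at 37.8 and 40.3 FPKM in shTex10 libraries against 47.6 and 46.3 FPKM in shLuci libraries, whereas the shTex10 libraries lie above the shLuci libraries in all 7 unnamed rows.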

How the data were processed

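RNA was poly(A)-selected, prepared with the TruSeq kit and read as 100-base single ends on an Illumina instrument, according to the labels. Build mm9 with Cufflinks 2.1.1, TopHat2 2.0.10 and Bowtie2 2.1.0 is listed in the submitters' processing notes. The options, the annotation and how strand was treated were not given in the sources used here. Per row and library, the authors deposited FPKM, with no pooling.

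Rows sharing a gene name were summed. Unnamed rows, 68.8% to 70.8% of summed FPKM in shTex10 libraries and 56.3% to 71.6% in shLuci libraries, stayed out of the test of named genes. Genes with a mean of at least 1 FPKM entered limma 3.58.1 on log2(FPKM + 1) values (R 4.3.3, moderated with a trend, Benjamini-Hochberg adjustment, no block). The step was also run on simulated data with independent noise and few changed genes. These data differ from that setting, so that run does not show how many calls here are false. FPKM holds no counts. From the smallest values the other libraries had 83.4% (shTex10 replicate 1), 92.0% (shTex10 replicate 2) and 94.0% (shLuci replicate 2) of the depth of shLuci replicate 1, an estimate of relative depth only. In that order, each is the most frequent ratio, held by only 5.33%, 4.79% and 11.3% of 2779 row lengths, so it is rough. Replicates held 0 identical nonzero gene values in either group. No label shows whether replicates came from separate cultures, and the p-values then reflect only how much these libraries vary, which may be technical.

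File starts count from 0 and are given here counted from 1. All 10 genes, their close relatives, Tex10 and, in each list, the genes with the smallest p (up to 5, or up to 3 for markers) were named, apart from 1 gene that is not reported here. The members and lists were chosen with earlier results of these data known. Ndst2, which shares its row with another gene, and Hras were not used here. Pseudocounts, filters, scalings, variance models, a replicate block and leaving out each library were tried as alternatives.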

Additional observations from a re-analysis of the deposited data

Results flagged for a closer look

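The unnamed rows within 10 kb on the 3′ side of Spry2 belong to no named gene, and their signal was higher in shTex10 cells than in the control. Mean FPKM was 2.70 in shTex10 cells and 0.705 in shLuci cells in the row nearest to Spry2. In the next row it was 3.98 in shTex10 cells and 0.955 in shLuci cells. In the third it was 9.05 in shTex10 cells and 1.89 in shLuci cells. The first 2 of these rows passed the filter through the shTex10 libraries alone. The origin of these reads was not tested.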

How the results depend on the processing

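Over 17 alternatives, 155 of 170 results for the 10 genes kept their direction and their side of the threshold, 10 lost the call, 1 gained it and 4 changed sign. All 4 were Etv5, at 0.034 under median scaling, 0.26 under quantile normalization, 0.19 under named-gene scaling, and a range of -0.12 to 0.054 when a library was left out. Fgf4, Fgf17 and Spry4 passed under all 17. Across all genes, 1906 fell under named-gene scaling (16.0%), against 3779 (31.8%) as deposited. A filter at a mean of at least 5 FPKM tests fewer genes, and 1292 of them rose, against 2350 of 11883 in the main fit. All-row scaling called 892 genes, 237 lower and 655 higher, and of the 10 genes 3, with 3 lower and 0 higher. It widens the spread between replicates, since the summed FPKM of the shLuci libraries differ. Leaving out any 1 library kept the log2 change of Dusp4 at 0.25 to 0.28, and its call was lost. Such a fit leaves 1 library in a group. The SEs of the 10 genes were then 0.16 to 0.17, against 0.08 to 0.13 with all 4 libraries. A call lost there thus does not by itself show dependence on the library left out. Labels give replicate numbers but no shared batch. Deviations from the group mean correlated across genes at r = 0.33 with only 2 pairs. A replicate block called 8919 of the 11883 genes tested, 5709 of them lower. Spry2 was among those called lower with this block (adjusted p = 0.00364, limma). Of the unnamed rows near Spry2, 1 was tested and called at a mean of at least 5 FPKM, and 7 were called in the wider window. With 2 libraries a group and no counts, small changes such as those of Spry2, Dusp4 and Etv5 are not resolved.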
